A study of Mus musculus with 6 samples.

Results

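Clustered histone genes, most of them replication-dependent, code for the histones H1, H2A, H2B, H3, and H4. They lie side by side in a few places of the mouse genome. They were taken here as the non-control probes whose gene name in the scanner files begins with Hist1h, Hist2h, Hist3h, or Hist4h, which gave 68 probes on 77 spots for 56 genes among 36778 named genes tested. All 56 genes passed the detection filter used for the whole array, and 37 of them were well above background on all 6 arrays, as were 18272 of the named genes. Of the other 19 genes, 17 were well above background on none of the arrays. Among these 17 are Hist1h1t, the testis H1, and Hist3h2bb-ps, named as a pseudogene. The 2 remaining ones, Hist2h2aa1 and Hist1h2bf, were so on some arrays. Genes are called by the names in the files, and the accessions of 46 of the 56 genes are listed in RefSeq under newer symbols such as H2ac19 for Hist2h2aa2.

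Total RNA of the left kidney was hybridized to 6 one-color Agilent arrays, 1 mouse per array. All mice were males at 8 weeks of age that had gone without food for 20 h. The 3 WT mice are C57BL/6J (replicates 2, 3, and 4, named here WT 2, WT 3, and WT 4), and the 3 Selenbp1-KO mice lack selenium-binding protein 1 (replicates 1, 2, and 3, named KO 1, KO 2, and KO 3). Neither group received any agent. The WT mice were purchased and the sources used here do not say that the KO mice were their littermates, so genotype and breeding origin cannot be told apart. RNA was labeled with a low-input kit of the Quick Amp type, in which cDNA synthesis starts from an oligo-dT primer at a poly(A) tail.

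Histones package nuclear DNA, with H2A, H2B, H3, and H4 forming the core of the nucleosome and H1 binding the linker DNA between nucleosomes. The transcripts of the clustered genes are made mainly in S phase, when new DNA needs new nucleosomes. Most of them carry no poly(A) tail and end shortly after a stem-loop bound by the protein Slbp, and some of these genes also give tailed transcripts, above all in cells that no longer divide. The kidney is a tissue in which few cells divide.

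All 6 arrays lie on 1 slide. The position code in the file headers begins with 1 for WT 2 and WT 3 and with 2 for WT 4 and all 3 KO arrays, and this first number is called the slide row. Because row 1 holds WT arrays alone, differences are also given within row 2, as the 3 KO arrays minus WT 4, which has no spread on the WT side. The level used throughout is the log2 of the processed signal relative to the 75th percentile of the array, and that percentile was between 477 and 751 units. Between 51.8% and 55.5% of spots were well above background and none was saturated. Selenbp1 differed by −2.96 in log2 (SE 0.098, limma adjusted p = 0.0021), with every KO array below every WT array. The probe of its paralog Selenbp2 differed by −3.22, from a mean WT level of 7.13. The paper describes Selenbp2 as low in the kidney and highly homologous to Selenbp1, and it measured Selenbp2 mRNA in KO kidneys. Whether this probe also reads Selenbp1 RNA was not tested. Kidney markers were all present: the 12 of 12 on the list, among them Kap and Umod, were well above background on all arrays. Where a median is given for all genes, the 75th percentile scaling puts it at 0.13 (KO minus WT) over the 36778 named genes and at 0.019 over the 18272 genes well above background. Under quantile normalization the median over all 56097 probes moved from 0.11 to 0.00059.

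The 3′ end of these transcripts can be seen in the array's own probes, which are 60 bases long. Of the 68 probes, 5 hold a complete stem-loop, read here as a 6-base stem beginning with GG, a 4-base loop beginning with TTT, and the reverse complement of the stem. That is 7.35% of the histone probes, and only 6 of all 56605 probes on the array (0.0106%) hold one. The windows below give the stem-loop in capitals with a few bases on each side, because they show the element that stands in place of a poly(A) tail.

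Hist1h2bf: acccaaaGGCTCTTTTCAGAGCCaccta
Hist1h3a: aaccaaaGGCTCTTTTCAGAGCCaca
Hist1h3i: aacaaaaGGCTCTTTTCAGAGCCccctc
Hist1h4m: aactaaaGGCCCTTTTCAGGGCCatccaa
Hist2h2bb: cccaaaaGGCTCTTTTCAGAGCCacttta

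These probes lie at the end of the mature transcript, on chromosome 13 of mm9 for the Hist1 genes (23665629 to 23665688, 23853756 to 23853815, 21874784 to 21874843, and 21903960 to 21904019) and on chromosome 3 for Hist2h2bb (96074056 to 96074115). All 5 were dim. Hist1h3a, Hist1h3i, and Hist1h4m were well above background on none of the arrays, Hist1h2bf on 2, and Hist2h2bb, at about 42 signal units, on all 6. The hexamer AATAAA of the usual poly(A) signal is present in 4 of the histone probes (5.88%), against 9.77% of all probes on the array. In the Hist1h2ag probe these letters include the TAA stop codon of the coding region, so they need not be a poly(A) signal.

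The brightest H2A probes, in contrast, sit at the end of the H2A coding region and are nearly the same sequence. Their 60 bases are printed because the shared run, in capitals, decides what such a probe can tell apart. The run of 29 bases is held whole by 6 histone probes and by 7 probes of the array. The one outside the clusters belongs to H2afj, an H2A variant gene whose transcripts have a poly(A) tail.

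Hist1h2aa: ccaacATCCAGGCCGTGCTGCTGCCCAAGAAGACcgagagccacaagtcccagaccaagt
Hist1h2af: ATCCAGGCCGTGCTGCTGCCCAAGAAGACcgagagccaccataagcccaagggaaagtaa
Hist1h2ah: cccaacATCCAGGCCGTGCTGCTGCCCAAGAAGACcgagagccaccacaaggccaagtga
Hist1h2ak: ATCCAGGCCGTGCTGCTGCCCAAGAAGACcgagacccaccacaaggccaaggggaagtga
Hist2h2aa2: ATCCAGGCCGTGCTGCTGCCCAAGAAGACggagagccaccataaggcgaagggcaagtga
Hist2h2ac: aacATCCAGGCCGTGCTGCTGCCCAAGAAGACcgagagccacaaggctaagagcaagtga
Hist1h2an: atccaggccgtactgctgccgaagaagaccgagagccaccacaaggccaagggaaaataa

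The first 6 of these probes had signals between 31715 and 56532 units, and the last, which differs from the shared run, was dimmer. Longer runs join single pairs, such as 45 bases between Hist1h2aa and Hist2h2ac, 44 between Hist1h2aa and Hist1h2ah, and 38 between Hist2h2aa2 and H2afj. Counting runs of at least 25 bases, 9 of the 11 H2A genes well above background shared one with another member. Hist1h4j shared one only with a dimmer probe of Hist1h4k that is not used for its level. A signal at one of the 9 H2A probes may come from more than 1 gene, which was not tested, so their values may not be separate measurements. Probes that share runs did not all read alike: Hist1h2ag and Hist1h2ah share 39 bases and had mean levels of 3.47 and 6.16.

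Levels spanned the whole range of the array, as the plot of every gene and array shows. The brightest were 6 H2A genes, between 5.69 and 6.56 in log2 on every array, and Hist1h2bc of H2B, at 5.83 to 6.25. Levels of different probes depend on the probe as well as on the RNA, so their order is not an order of transcript abundance. H1, H2A, H2B, H3, and H4 had 3 of 6, 11 of 18, 9 of 14, 6 of 9, and 8 of 9 genes well above background on all arrays.

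**Figure D1:**
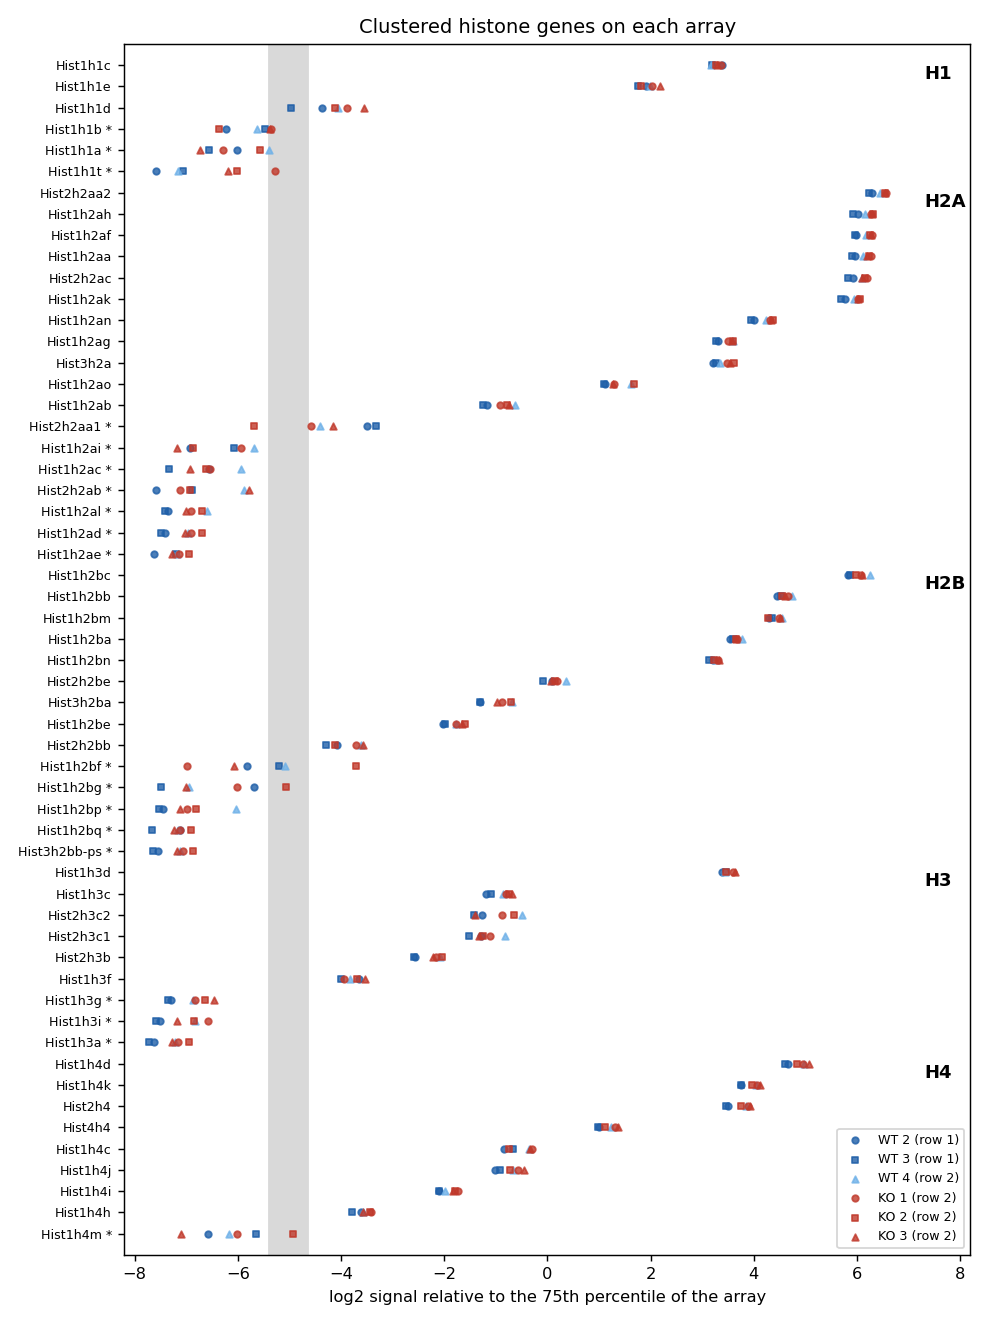
Level of each of the 56 clustered histone genes on each array (x axis, log2 signal relative to the 75th percentile of the array), ordered by class and mean level. The gray band spans the lowest signal well above background on the 6 arrays, and a star marks the 19 genes that were not well above background on all 6; within most genes the 6 points lie close together compared with the distance between genes.

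The clustered histone genes were slightly brighter in Selenbp1-KO than in WT kidneys. By median, most of this difference came from WT 2 and WT 3, the 2 arrays of row 1. Of the 37 genes well above background, 36 had a positive difference, and their median was 0.20 in log2 (KO minus WT), against 0.019 for all genes well above background. A gene is called where its unadjusted p in limma is under 0.05, and 3 of the 37 were, all higher: Hist3h2a, Hist1h4i, and Hist1h3c. No member passed after Benjamini–Hochberg adjustment over all 56097 probes, where the lowest adjusted p was 0.279. Within row 2 the median was 0.024, with 21 of 37 genes positive.

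By counts, 5 of the 56 genes were called higher in KO (8.93%), where 6.87% of all named genes were. None was called lower, where 1.13% of all named genes were. Among genes well above background, the 3 of 37 (8.11%) stand beside 4.42% called higher and 1.07% called lower in the whole array. The count of 5 rested on single arrays: without WT 4 it was 29 (28 higher), without WT 2 or WT 3 it was 1, and without any single KO array it was 2. The calls over all 56097 probes moved too, from 3632 higher and 847 lower to 16597 and 988 without WT 4. They were 1280 and 744 without WT 2, and 1542 and 1085 without WT 3. With all 6 arrays, adjusted calls were 0.00544% of all named genes, namely Selenbp1 and Selenbp2. In 12 of the 37 genes every KO array lay above every WT array (32.4%), against 12.8% of all genes well above background. In none did every KO array lie below every WT array, against 6.51%. Of the 12, 7 are H2A genes that share a probe run with another member.

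**Figure D2:**
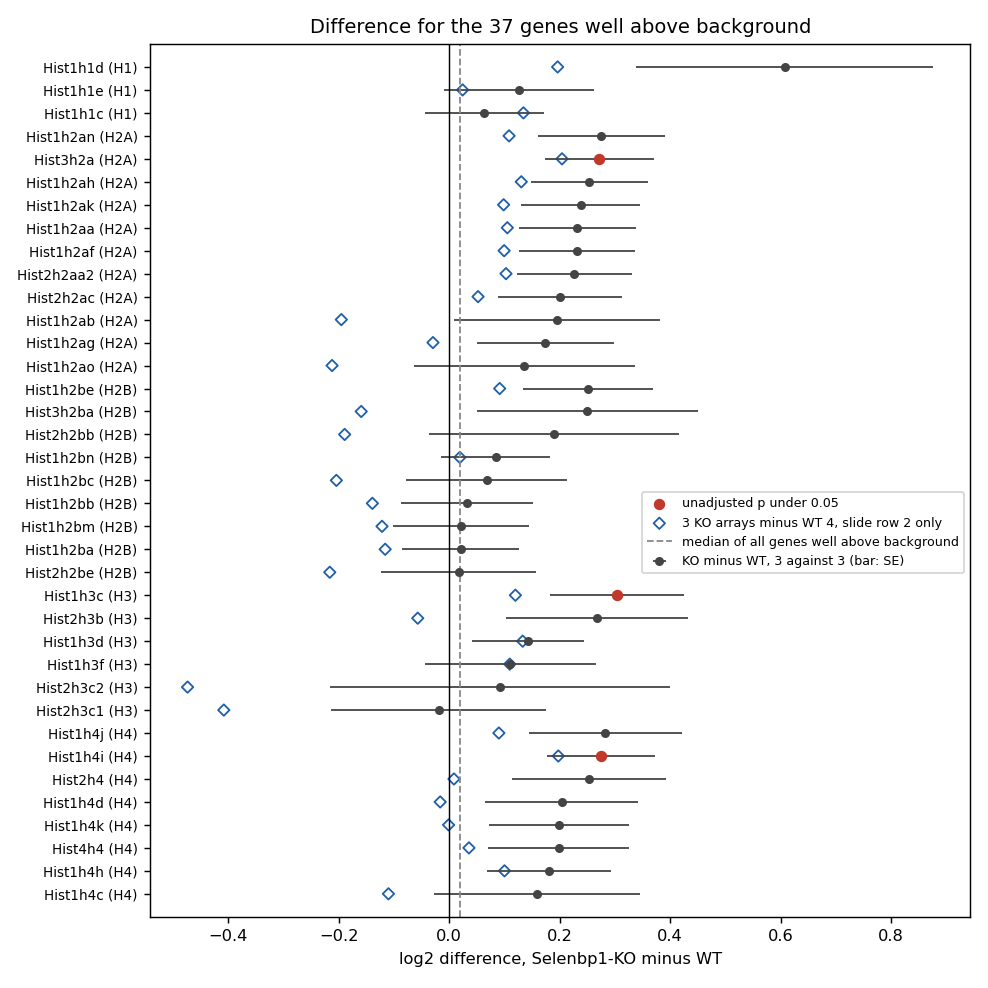
Log2 difference, Selenbp1-KO minus WT, for the 37 genes well above background on all arrays (filled points with SE, n = 3 against 3), with the same difference within slide row 2 as open diamonds (3 KO arrays minus WT 4). The filled points lie mostly right of the dashed median of all genes, at 0.019, and the diamonds scatter on both sides of 0.

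The 3 called genes belong to H2A, H4, and H3. Hist3h2a (H2aw in RefSeq) codes for an H2A outside the large cluster, on chromosome 11 of mm9 (58768387 to 58768446). Its level was 3.21, 3.27, and 3.34 on WT 2, WT 3, and WT 4, and 3.49, 3.61, and 3.54 on KO 1, KO 2, and KO 3. All KO arrays were above all WT arrays, and the difference was 0.27 (SE 0.099, limma adjusted p = 0.279). Within row 2 it was 0.20 (SE 0.12 with slide row as a block) and did not pass the threshold. A further probe of Hist3h2a, farther toward the 3′ end of its transcript, differed by only 0.051 (SE 0.14).

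Hist1h4i (H4c9) codes for H4, the most conserved core histone, on chromosome 13 (22133139 to 22133198). It read −2.10, −2.09, and −1.98 on the WT arrays and −1.73, −1.79, and −1.83 on the KO arrays. The groups did not overlap, and the difference was 0.27 (SE 0.098, limma adjusted p = 0.279). It was 0.20 within row 2 (SE 0.12 with slide row as a block), where it did not pass the threshold.

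Hist1h3c (H3c3) codes for an H3 on chromosome 13 (23836950 to 23837009). Its level was −1.18, −1.10, and −0.87 on the WT arrays and −0.80, −0.75, and −0.69 on the KO arrays. The groups did not overlap, though WT 4 lay closer to KO 1 than to the other WT arrays. The difference was 0.30 (SE 0.12, limma adjusted p = 0.279), and 0.12 within row 2 (SE 0.12 with slide row as a block), where it did not pass the threshold.

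With 1 array left out, the 3 genes kept a positive difference each time, of 0.24 to 0.31 for Hist3h2a, 0.25 to 0.31 for Hist1h4i, and 0.24 to 0.40 for Hist1h3c. They passed the threshold without WT 4 and missed it without any other single array.

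The other 2 called genes, Hist1h1t, the testis H1, and Hist1h3g, an H3, were well above background on none of the arrays, so no fold is given for them. Probes of this kind read between 3.5 and 16.9 signal units on all arrays, where the difference between arrays in log2 level also holds the difference between their 75th percentiles.

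H2A had a median difference of 0.23, and in 8 of its 11 genes all KO arrays were above all WT arrays, against 12.8% of all genes well above background. Of the 8, 7 share a probe run with another member. Hist2h2aa2, the brightest, read 6.29, 6.23, and 6.45 on the WT arrays and 6.56, 6.54, and 6.55 on the KO arrays (difference 0.23, SE 0.10, limma adjusted p = 0.279, and 0.10 within row 2). Hist1h2ah read 6.01, 5.93, and 6.16 on the WT arrays and 6.27, 6.32, and 6.28 on the KO arrays (difference 0.25, SE 0.11, limma adjusted p = 0.279, and 0.13 within row 2). In both the KO arrays were above all WT arrays, and WT 4 stood between the other WT arrays and the KO arrays. H2afj, the variant gene whose probe shares up to 38 bases with these, had a difference of 0.21 (SE 0.10, limma adjusted p = 0.285). Within row 2 the H2A median was 0.10, with 8 of 11 genes positive.

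H2B, the partner of H2A in the nucleosome, had a median difference of 0.068 and no gene without overlap among its 9. Of all genes well above background, 12.8% had every KO array above every WT array and 6.51% every KO array below. A dimmer probe of Hist3h2ba, not used for its level, did have all KO arrays above all WT arrays (difference 0.38, SE 0.16). Hist1h2bc, the brightest, read 5.83, 5.86, and 6.25 on the WT arrays and 6.07, 5.98, and 6.10 on the KO arrays (difference 0.068, SE 0.15, limma adjusted p = 0.852, and −0.20 within row 2). Hist1h2bb read 4.44, 4.53, and 4.74 on the WT arrays and 4.67, 4.54, and 4.60 on the KO arrays (difference 0.033, SE 0.12, limma adjusted p = 0.919, and −0.14 within row 2). In both WT 4 was the highest of the 6 arrays. Within row 2 the H2B median was −0.14, with 2 of 9 genes positive. The difference between the H2A and H2B medians was not tested.

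H4 had a median of 0.20 over 8 genes, all positive, and 0.022 within row 2 with 5 of 8 positive. Hist1h4d, the brightest, read 4.66, 4.61, and 4.97 on the WT arrays and 4.95, 4.84, and 5.06 on the KO arrays (difference 0.20, SE 0.14, limma adjusted p = 0.464, and −0.016 within row 2). Hist1h4k read 3.75, 3.74, and 4.05 on the WT arrays and 4.06, 3.96, and 4.12 on the KO arrays (difference 0.20, SE 0.13, limma adjusted p = 0.432, and −0.00095 within row 2). WT 4 lay within the KO range in both.

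H3 had a median of 0.13 over 6 genes, and 0.027 within row 2. Its brightest members were Hist1h3d, at 3.38, 3.45, and 3.43 on the WT arrays and 3.59, 3.46, and 3.65 on the KO arrays (difference 0.14, SE 0.10, limma adjusted p = 0.487, and 0.13 within row 2), and Hist1h3c, described above. Hist1h3d was one of the 3 genes in which WT 4 was not above both other WT arrays.

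H1, the linker histones, had a median of 0.13 over 3 genes. Hist1h1c read 3.38, 3.18, and 3.17 on the WT arrays and 3.37, 3.26, and 3.29 on the KO arrays (difference 0.063, SE 0.11, limma adjusted p = 0.808, and 0.13 within row 2). Hist1h1e read 1.91, 1.75, and 1.98 on the WT arrays and 2.02, 1.81, and 2.18 on the KO arrays (difference 0.13, SE 0.14, limma adjusted p = 0.675, and 0.024 within row 2). The genotypes overlapped in both. Hist1h1d, close to background, had the largest difference of the 37 genes, 0.61 (SE 0.27, limma adjusted p = 0.279), with overlapping groups, and 0.20 within row 2. The H1 median within row 2 was 0.13.

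Among the dimmer members well above background, the H2B gene Hist1h2be read −2.03, −1.99, and −1.77 on the WT arrays and −1.77, −1.61, and −1.66 on the KO arrays (difference 0.25, SE 0.12, limma adjusted p = 0.279, and 0.091 within row 2). The H4 gene Hist1h4j read −1.01, −0.91, and −0.67 on the WT arrays and −0.56, −0.73, and −0.45 on the KO arrays (difference 0.28, SE 0.14, limma adjusted p = 0.287, and 0.090 within row 2). In both WT 4 lay at or inside the KO range. Hist4h4, the only gene of the Hist4 cluster on chromosome 6, had a difference of 0.20 (SE 0.13), and 0.036 within row 2. Hist1h4h, close to background, was one of the H4 genes without overlap, with a difference of 0.18 (SE 0.11). By cluster, the medians were 0.19 over 26 Hist1 genes, 0.20 over 8 Hist2 genes, and 0.26 over 2 Hist3 genes, and within row 2 they were 0.091, −0.12, and 0.023.

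**Figure D3:**
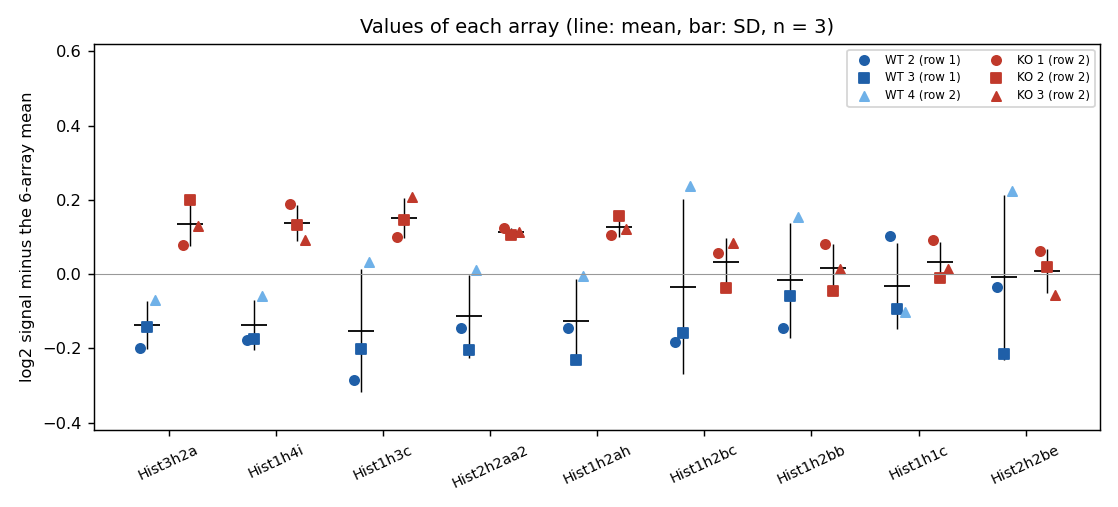
Values of each array for the 3 called genes and for bright members of H2A, H2B, and H1 with Hist2h2be (y axis, log2 signal minus the mean of the 6 arrays; lines are group means, bars are SD, n = 3). The KO points lie above all WT points for the first 5 genes, and the light blue triangle, WT 4, is the highest point for Hist1h2bc, Hist1h2bb, and Hist2h2be.

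The Hist2 cluster lies on chromosome 3, the chromosome of Selenbp1, with its probes 1.28 to 1.33 Mb from the Selenbp1 probe. None of its 10 genes was called, and 8 of them were well above background on all arrays. Besides Hist2h2aa2, described above, the H2A gene Hist2h2ac read 5.92, 5.82, and 6.09 on the WT arrays and 6.19, 6.15, and 6.10 on the KO arrays (difference 0.20, SE 0.11, limma adjusted p = 0.36, and 0.052 within row 2). Hist2h4, an H4 gene, read 3.51, 3.46, and 3.85 on the WT arrays and 3.88, 3.76, and 3.93 on the KO arrays (difference 0.25, SE 0.14, limma adjusted p = 0.354, and 0.0088 within row 2). The KO range lay just above WT 4 for Hist2h2ac and included it for Hist2h4.

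The H2B gene Hist2h2be, whose probe lies 2534 bases into its listed transcript and holds AATAAA, was at 0.092, −0.090, and 0.35 on the WT arrays and 0.19, 0.15, and 0.071 on the KO arrays (difference 0.017, SE 0.14, limma adjusted p = 0.967, and −0.22 within row 2). Hist2h2bb, the H2B gene whose probe holds the stem-loop, read −4.09, −4.29, and −3.62 on the WT arrays and −3.72, −4.13, and −3.58 on the KO arrays (difference 0.19, SE 0.23, and −0.19 within row 2). Both had overlapping genotypes.

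Of the H3 genes in this cluster, Hist2h3b read −2.56, −2.58, and −2.08 on the WT arrays and −2.15, −2.05, and −2.22 on the KO arrays (difference 0.27, SE 0.16, and −0.057 within row 2). Hist2h3c1 read −1.29, −1.52, and −0.82 on the WT arrays and −1.12, −1.25, and −1.32 on the KO arrays (difference −0.019, SE 0.19, and −0.41 within row 2). Hist2h3c2 read −1.28, −1.42, and −0.50 on the WT arrays and −0.87, −0.64, and −1.40 on the KO arrays (difference 0.092, SE 0.31, and −0.47 within row 2). WT 4 stood above WT 2 and WT 3 in all 3 genes, and the genotypes overlapped.

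The last members of the cluster were dim. Hist2h2aa1, read by a probe 1673 bases into a cDNA, was well above background on all WT arrays (−3.49, −3.32, and −4.41) and on 1 KO array, with KO levels of −4.59, −5.69, and −4.16. The difference of −1.07 (SE 0.47) rests on KO values of which 2 were not well above background, and it was −0.40 within row 2 and −0.11 with normexp. WT 4 lay within the KO range. Hist2h2ab was at background on every array, from −7.59 to −5.79.

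Across arrays the median level of the histone genes was lowest on WT 2 and WT 3. On WT 4, the only WT array of row 2, it lay near the KO arrays. The median deviation of the 37 genes from their 6-array mean was −0.18 on WT 2 and −0.21 on WT 3, 0.063 on WT 4, and 0.10, 0.077, and 0.11 on KO 1, KO 2, and KO 3. For all genes well above background the same medians ran from −0.030 to 0.021. WT 4 was above both other WT arrays in 34 of the 37 genes. It lay within the KO range in 15 genes, above all KO arrays in 9, and below all of them in 13. In 27 of the 37 genes (73.0%) all 4 arrays of row 2 were above both arrays of row 1, against 18.7% of all genes well above background. After quantile normalization the medians were −0.14, −0.16, and 0.043 on the WT arrays and 0.074, 0.025, and 0.081 on the KO arrays, which is the same order of rows. Row 1 holds no KO array, so for WT 2 and WT 3 slide row and genotype cannot be told apart.

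Other RNAs without a poly(A) tail also had their lowest median levels on WT 2 and WT 3, with larger differences than the histones. The list holds small nuclear and nucleolar RNAs and the RNA parts of RNase P, RNase MRP, and the signal recognition particle. Of its 22 measured genes, 15 were called higher and none lower, with a median difference of 1.25. Of all named genes, 6.87% were called higher and 1.13% lower. Rmrp, the RNA of RNase MRP, read −0.74, −0.75, and 0.075 on the WT arrays and 0.58, 0.64, and 0.65 on the KO arrays (difference 1.09, SE 0.24, limma adjusted p = 0.279, and 0.55 within row 2). Rpph1, the RNA of RNase P, read −0.42, −0.60, and 0.91 on the WT arrays and 2.43, 2.22, and 2.04 on the KO arrays (difference 2.26, SE 0.41, limma adjusted p = 0.279, and 1.31 within row 2). WT 4 lay between the other WT arrays and the KO arrays in both.

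For the 18 of these RNAs well above background the median deviation was −1.09, −1.13, and 0.16 on the WT arrays and 0.87, 0.66, and 0.52 on the KO arrays. Within row 2 their median difference was 0.42, with 17 of 18 positive. Their summed level, as linear signal over the 75th percentile, was 53.9 to 136 in WT and 156 to 190 in KO. The summed level of the 37 histone genes was 606 to 719 in WT and 729 to 745 in KO, with WT 4 the highest of the WT arrays. The part of what these tailless RNAs share in the histone difference was not tested.

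**Figure D4:**
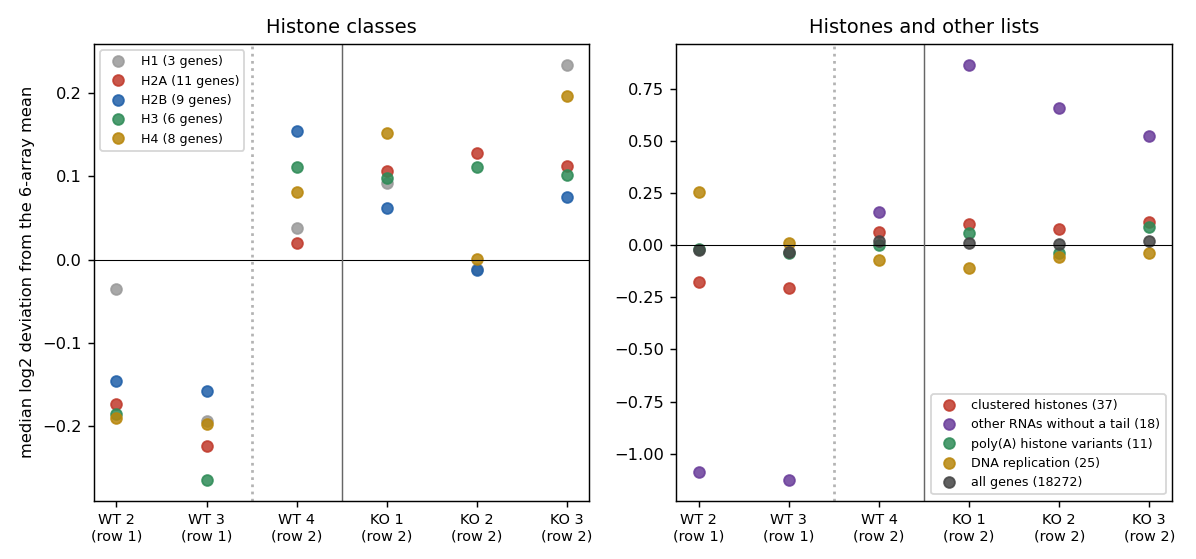
Median deviation of each class (left) and list (right) from its 6-array mean on each array (y axis, log2), for genes well above background on all arrays. The dotted line separates the slide rows and the solid line the genotypes; histone classes and other RNAs without a poly(A) tail are lowest on WT 2 and WT 3, and the poly(A) histone variants and all genes stay near 0.

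Genes around the clustered histones were compared from lists of known roles. Beside the counts of these lists, the shares over all named genes were 6.87% called higher and 1.13% called lower. The 11 histone variant genes with poly(A) tails, such as H2afz, H3f3a, and H1f0, were all well above background, with none called and a median difference of 0.037, and 0.057 within row 2. The brightest of them was H2afj, given above. Their median deviations lay between −0.039 and 0.088 on the 6 arrays. The H3 variant gene H3f3b, for example, differed by 0.037 (SE 0.097) and H2afz by 0.099 (SE 0.095).

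Of 14 genes for histone mRNA processing and transcription none was called. The median was −0.10, and within row 2 it turned to 0.029 with 8 of 14 positive. Slbp, which binds the stem-loop, read −1.26, −1.42, and −1.63 on the WT arrays and −1.51, −1.72, and −1.57 on the KO arrays (difference −0.16, SE 0.13, and 0.027 within row 2). Lsm10, of the U7 particle that cuts the transcript behind the stem-loop, was the brightest and differed by 0.11 (SE 0.099). Casp8ap2, a partner of the histone gene activator Npat, differed by −0.24 (SE 0.13, limma adjusted p = 0.33), with all KO arrays below all WT arrays.

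Of 14 histone chaperones, which carry histones to and from DNA, none was called, and 13 had a negative difference with a median of −0.12, and −0.10 within row 2. Nap1l1, the brightest, differed by −0.015 (SE 0.097). Nasp, a chaperone of H3 and H4, read 1.65, 1.57, and 1.69 on the WT arrays and 1.42, 1.40, and 1.55 on the KO arrays (difference −0.18, SE 0.10, limma adjusted p = 0.357, and −0.24 within row 2), and Asf1a, of the same histones, differed by −0.22 (SE 0.12). KO arrays lay below all WT arrays in both.

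Of 30 genes of DNA replication and the cell cycle, 1 was called, lower in KO, where 1.13% of all named genes were. The median was −0.10, and within row 2 it turned to 0.044 with 17 of 30 positive. That gene was Fen1, the endonuclease that trims Okazaki fragments, at 0.92, 0.67, and 0.78 on the WT arrays and 0.47, 0.39, and 0.56 on the KO arrays (difference −0.32, SE 0.11, limma adjusted p = 0.279, and −0.31 within row 2). Pcna, the sliding clamp and the brightest of the list, differed by −0.096 (SE 0.097). The 25 replication genes well above background were highest on WT 2, with a median deviation of 0.25 there and between −0.11 and 0.013 on the other arrays. Fewer cells of a type and less RNA per cell cannot be told apart in whole kidney RNA.

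Lists of markers of other cell types differed in their array order. Over all markers measured, median deviations of the fibroblast and macrophage lists were negative on all WT arrays and positive on all KO arrays. The lymphocyte and adrenal lists were lowest on WT 2 and WT 3, as the histones were. For lymphocytes the medians were −0.16, −0.19, and 0.10 on the WT arrays and 0.033, 0.31, and 0.014 on the KO arrays. Connective tissue fibroblast markers were called higher in KO for 7 of 8 (median 0.84) and macrophage markers for 6 of 10 (0.44). Red blood cell markers were called higher for 6 of 9 (0.56) and lymphocyte markers for 1 of 10 (0.23). Of all named genes, 6.87% were called higher, and the lymphocyte count is near that share. None of the 8 neutrophil, 7 fat, and 7 adrenal markers measured was called, with medians of 0.25, 0.78, and 0.38. All 7 fat markers had a positive difference with overlapping genotypes, and their median within row 2 was 1.91. Their median deviations were −0.23, 0.13, and −1.52 on the WT arrays and 0.73, 1.77, and −0.73 on the KO arrays. WT 4, the only WT array of row 2, was thus the lowest for this list. Summed levels of the fibroblast list were 19.6 to 26.4 in WT and 33.4 to 44.2 in KO, those of the macrophage list 16.2 to 19.8 and 22.2 to 24.1, and those of the red blood cell list 541 to 711 and 763 to 1141. Ahsp and Epb4.2 of the red blood cell list were well above background on none of the arrays. Col3a1, for example, had a difference of 0.73 and 0.67 within row 2, and Lyz2 0.74 and 0.91. Their part in the histone difference was not tested.

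Promoters of the clustered genes share known elements. RefSeq promoter windows of GRCm38.p6, from 250 bases before to 50 after the start, were found for 41 of the 56 genes. CCAAT, on either strand, was present in 35 of them (85.4%), against 41.1% of 27025 genes. TATAAA was present in 24 (58.5%), against 15.7%, and ATTTGCAT, the octamer, in 10 (24.4%), against 1.97%. CCAAT was in all 14 H2A, 9 H2B, 5 H3, and 5 H1 genes and in 2 of 8 H4 genes. The octamer was in 5 of 14 H2A and 5 of 9 H2B genes and in none of the windows of the other classes. These letters are a description of the windows and not of factor binding.

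Neighboring H2A and H2B genes often face away from each other with a common promoter, and 5 such pairs had overlapping windows. In Hist1h2ak and Hist1h2bn, which share 263 bases, both genes were well above background. The window of Hist1h2ak on the minus strand, chr13:21753863-21754162 of GRCm38.p6, is printed with CCAAT and TATAAA matches on either strand in capitals, because the pair is transcribed from it in opposite directions.

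Hist1h2ak: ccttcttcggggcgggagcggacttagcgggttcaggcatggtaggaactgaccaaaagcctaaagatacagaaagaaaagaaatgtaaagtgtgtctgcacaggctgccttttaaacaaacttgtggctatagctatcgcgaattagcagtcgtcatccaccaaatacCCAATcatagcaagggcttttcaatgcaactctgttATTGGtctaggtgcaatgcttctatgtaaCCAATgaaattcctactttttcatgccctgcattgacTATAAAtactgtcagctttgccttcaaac

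Hist1h2ak differed by 0.24 (SE 0.11) and Hist1h2bn by 0.084 (SE 0.098). In the pair Hist1h2aa and Hist1h2ba, with 220 shared bases, the differences were 0.23 (SE 0.11) and 0.021 (SE 0.11). Neither gene of either pair passed the threshold, and the H2A probe of each is among those that share the 29-base run, so the H2A values may not be those of the facing gene alone. The difference within a pair was not tested.

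The called H4 gene Hist1h4i has no CCAAT in its window, chr13:22041313-22041612 of GRCm38.p6 on the minus strand, and 1 TATAAA well upstream of the start. It is shown for contrast with the H2A window.

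Hist1h4i: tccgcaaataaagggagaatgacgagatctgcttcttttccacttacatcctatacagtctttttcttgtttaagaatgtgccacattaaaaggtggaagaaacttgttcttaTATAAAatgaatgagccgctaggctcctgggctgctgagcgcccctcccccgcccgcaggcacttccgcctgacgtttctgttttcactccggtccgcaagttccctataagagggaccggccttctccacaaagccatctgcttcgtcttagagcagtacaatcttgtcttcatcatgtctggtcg

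Genes with more than 1 probe show how far the readout depends on position. For Hist2h2ac, the coding probe was among the brightest of the array (43120 signal units on WT 2), and the probe farther downstream was at 3.7 units. For Hist1h1c, the probe at base 1341 of the listed transcript read 7382 units on WT 2 and the one at base 654 read 993, with differences of 0.063 and 0.027. For Hist1h4d, the probes differed by 0.20 and 0.23, and for Hist3h2ba by 0.25 and 0.38, KO minus WT. Of the 12 genes with several probes, none had 2 probes past the threshold.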

How the data were processed

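For each array the authors deposited the output of Agilent Feature Extraction: linear, background-subtracted intensities with flags and a detection p-value per spot, computed before they deposited them. Labels give version 9.5.1.1 and the file headers 10.7.1.1. The authors also deposited a table of quantile-normalized intensities, used as an alternative. Intensities were put on a log2 scale relative to the 75th percentile of the array's non-control spots. Flagged spots were dropped and spots of a probe averaged. Probes detected (p under 0.05) on 1 array or more were fitted with limma (version 3.58.1, R 4.3.3, lmFit and eBayes, two-sided), WT against Selenbp1-KO, without covariates. Calls use unadjusted p under 0.05, following the study. The fit was tested on simulated data. A gene is its brightest probe over the 6 arrays, and coordinates are mm9. No depth exists for arrays, and 3 against 3 limits the precision.

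Values of every array are given for called members well above background, the 2 brightest of each class, and the Hist2 cluster. The members and lists were chosen with earlier results of these data known. Replicate numbers 2 and 3 occur in both genotypes and the sources used here do not say that they pair mice. Alternatives were normexp (offset 50), quantile and median scaling, the authors' table, 3 filters, flagged spots kept, trend and robust options, slide row and replicate number as blocks, each array left out, and the mean of a gene's probes.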

Additional observations from a re-analysis of the deposited data

How the results depend on the processing

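The count of clustered histone genes past the threshold was 5 and depended on most settings. It was 8 with normexp, 13 with quantile normalization and with the authors' table, 11 keeping only probes well above background in 1 genotype, 19 with trend and robust options (18 higher), 2 with slide row as a block, and 1 to 29 when each array was left out. The 29, of which 28 were higher, came without WT 4, where 16597 of all 56097 probes were called higher and 988 lower. Of the 28, 20 were well above background on all arrays. In that setting 9 members had an adjusted p under 0.05, and the matching share over all probes is not given here. Hist1h1t and Hist1h3g, at background on all arrays, also reached a limma adjusted p of 0.049 among the alternatives. Without WT 2 or WT 3 it was 1, and without any single KO array 2. The replicate block gave 11, of which none was well above background on all arrays. It leaves few degrees of freedom, and the same-numbered arrays had correlations of 0.18 and 0.19 in their deviations, while WT 3 and KO 1 had 0.20. The count of all probes past the threshold was 4479 of 56097. It was 6261 with normexp, 4686 with quantile normalization, 4687 with the authors' table, and 14616 with median scaling. Keeping only probes well above background in 1 genotype gave 2841 of 28513. Trend and robust options gave 7536, the replicate block 18430, and slide row as a block 1361 higher and 2290 lower. When each array was left out, it was 2024 to 17585 (17585 without WT 4). The median of the 37 genes well above background was 0.20 and moved to 0.024 with slide row as a block. In the other alternatives it lay between 0.14 and 0.30. Hist3h2a, Hist1h4i, and Hist1h3c kept a positive difference in all 18 alternatives and passed the threshold in 10, 9, and 10. All 3 lost it without WT 2, without WT 3, without each KO array, with slide row as a block, and with the replicate block. The cause was not tested. The 19 genes not well above background on all arrays allow no firm difference.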
